A study of Homo sapiens with 6 samples.

Results

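The BRD2 locus on chromosome 6 carried a broad, shallow domain of METTL14 enrichment in untreated HepG2 cells that enclosed the whole gene. Its fold of immunoprecipitated over scaled input reads was 1.23. After the transcription inhibitor DRB, the 3 islands of the locus, summed, had a fold of 1.10 (counting interval 0.86 to 1.41). That was 0.90 times (0.69 to 1.16) the untreated fold with the authors' scaling. The ratio was 0.91 (0.71 to 1.18) when scaled by the median of islands at least 10 kb wide. It was 0.74 (0.58 to 0.96) when scaled by reads of nuclear islands, which mostly held few reads each with DRB. The DRB islands of the locus differed among themselves. Those at the gene start and inside the gene had a pooled fold of 0.94 (0.72 to 1.24). That was 0.77 times (0.58 to 1.02) the fold of the untreated domain, of which they cover only a part. The 1 DRB island called significant, at 2.15-fold (1.18 to 4.12), lay upstream of the gene start. That call would be lost with 1 IP read fewer. The locus comprised every candidate island that overlapped chr6:32925000-32960000 on hg19, where BRD2 spans 32936437 to 32949282. These were 2 of the 38696 candidate islands of untreated cells and 3 of the 67802 of DRB-treated cells. The locus was chosen by its read counts in these same tables, so its folds are given as a description, with no test.

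HepG2 is a human hepatocellular carcinoma line. All cells carried METTL14 fused to an HA tag and EGFP, which a lentivirus had delivered; the cells had been kept in puromycin and sorted for high GFP, so the protein precipitated by the HA antibody was the overexpressed one. The untreated condition had 2 immunoprecipitated (IP) and 2 input libraries, and the DRB condition, 100 µM for 3 h, had 1 of each. Each condition was deposited as 1 table that counts IP and input reads in islands, which the caller SICER builds by joining windows of 200 bp. The replicates were not separate in the tables, so no value has an error between replicates. Intervals are exact, at 95%, except 1 named as a normal interval, and cover only the error of counting reads.

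METTL14 binds RNA and pairs with the enzyme METTL3, and together they place N6-methyladenosine on RNA, much of it while the RNA is being transcribed. DRB inhibits CDK9, the kinase that releases RNA polymerase II into elongation, so the comparison asks how METTL14 on chromatin differs when elongation is blocked. BRD2 is a member of the BET family, whose paired bromodomains bind acetylated histones, and it acts in transcription. Its gene lies within the class II region of the major histocompatibility complex. In the RefSeq order of GRCh38.p14 it stands between HLA-DMA and HLA-DOA among the protein-coding genes. HLA-DMA codes for a chain of HLA-DM, which helps load peptides onto class II molecules, and HLA-DOA for a chain of HLA-DO, which modulates HLA-DM. HLA-DMB, PSMB9 and TAP1 follow on one side, and HLA-DPA1, HLA-DPB1 and COL11A2 on the other.

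RefSeq lists 4 start sites for BRD2, the last of them 4490 bp downstream of the first. The 250 bases before the first start are shown because the untreated domain covered the start of the gene span on hg19. Another reason was that 1 DRB island ended 37 bp before the start of that span. These bases lie at chr6:32968344-32968593 of GRCh38.p14 on the plus strand, and the capitals mark the single GC box. The builds were not aligned, so the distance of that island from the first RefSeq start is not known.

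BRD2 promoter: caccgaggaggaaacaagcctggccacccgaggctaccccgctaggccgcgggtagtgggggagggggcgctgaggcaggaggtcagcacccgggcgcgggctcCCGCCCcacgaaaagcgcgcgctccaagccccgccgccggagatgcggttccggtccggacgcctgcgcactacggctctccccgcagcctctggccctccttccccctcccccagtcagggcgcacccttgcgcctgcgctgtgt

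The sequence held 27 CpG dinucleotides and was 74.0% G or C. Of the 35116 promoters in the table, 82.3% had fewer CpGs in the same 250 bases, and the median was 11. The GC box (GGGCGG, searched on both strands) was found in 42.6% of all these promoters. The TATA box (TATAAA), the CCAAT box (CCAAT) and the E-box (CACGTG) had no match in the BRD2 sequence, against 10.7%, 32.0% and 6.34% of all promoters with one. The 250 bases before the other starts, in order along the gene, held 10, 12 and 30 CpGs.

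In untreated cells the main island lay at chr6:32932801-32953200. It was 20.4 kb wide, began 3636 bp before the gene and ended 3918 bp past it, so that all 12846 bp of BRD2 lay inside. It held 1767 IP reads and 1541 input reads, which is a 1.23-fold enrichment (1.15 to 1.32) with the authors' scaling of 1.07. Scaled in this way, the input accounted for 1436 of the IP reads, leaving an excess of 330.8. The fold was 1.16 (1.08 to 1.24) when scaled by the summed reads of nuclear islands. It was 1.20 (1.12 to 1.28) when scaled by the median of islands at least 10 kb wide. In the authors' deposited table this island had a false discovery rate (FDR) of 3.67e-15, and it was in their list of significant islands, which holds 5.10% of the untreated candidates. The authors' p-value takes the scaled input as exact, while the interval given here includes its counting error.

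The other untreated island of the locus lay immediately upstream and was not enriched. At chr6:32928801-32932000, 3.2 kb wide and 800 bp from the main island, it had 172 IP and 198 input reads, or 0.93-fold (0.76 to 1.15). The fold of the main island was 1.32 times (1.06 to 1.65) that of this neighbour. Each fold is an average over a whole island, so where enrichment begins within the domain is not resolved.

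**Figure D1:**
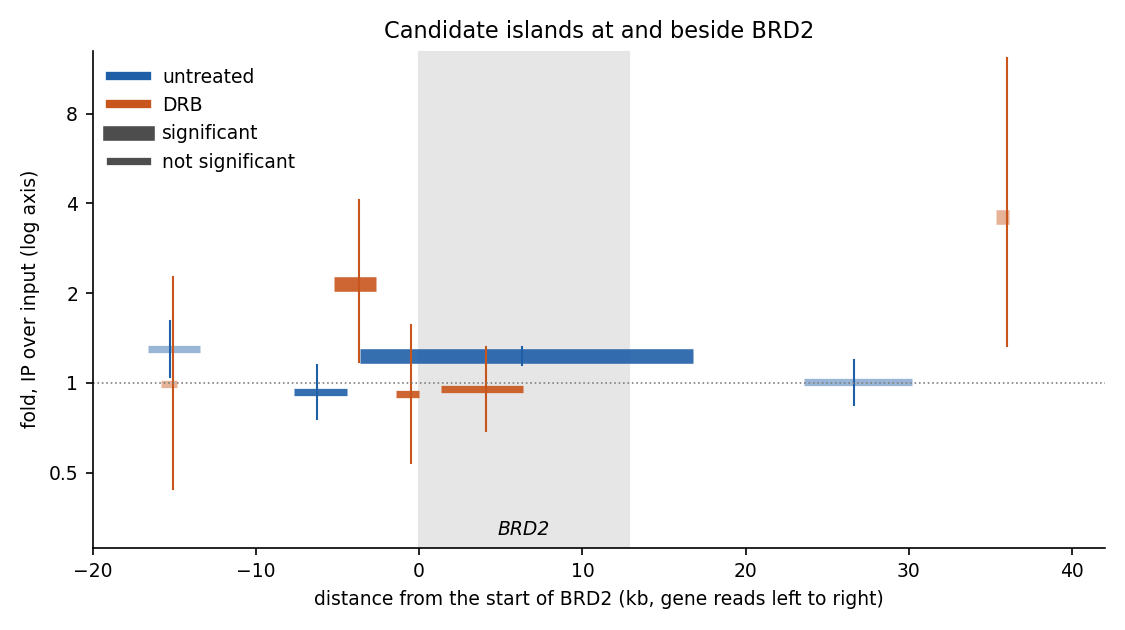
Candidate islands at and beside BRD2, by distance from the gene start in kb (x axis) and fold of IP over input (y axis, log scale). Horizontal bars span each island and vertical lines are exact 95% counting intervals; blue is untreated and orange is DRB, thick bars are significant islands, pale bars lie outside the window, and the grey band is BRD2. The blue 20.4 kb bar at 1.23-fold covers the gene, while the thick orange bar at 2.15-fold ends 2637 bp before it.

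Both the IP and the input were denser over BRD2 than around it, and the IP more so. The main island had 86.6 IP reads and 75.5 input reads per kb. The candidate islands of the 500 kb on either side of the window, pooled, had 54.1 and 57.8 per kb. The IP density at BRD2 was thus 1.60 times (1.52 to 1.69) that of the flanks, and the input density 1.31 times (1.24 to 1.38). Input density at BRD2 was higher than in 95.2% of all untreated nuclear candidates. Input follows copy number and how readily chromatin shears as well as depth, and their part in the result was not tested. The fold divides this input out.

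**Figure D2:**
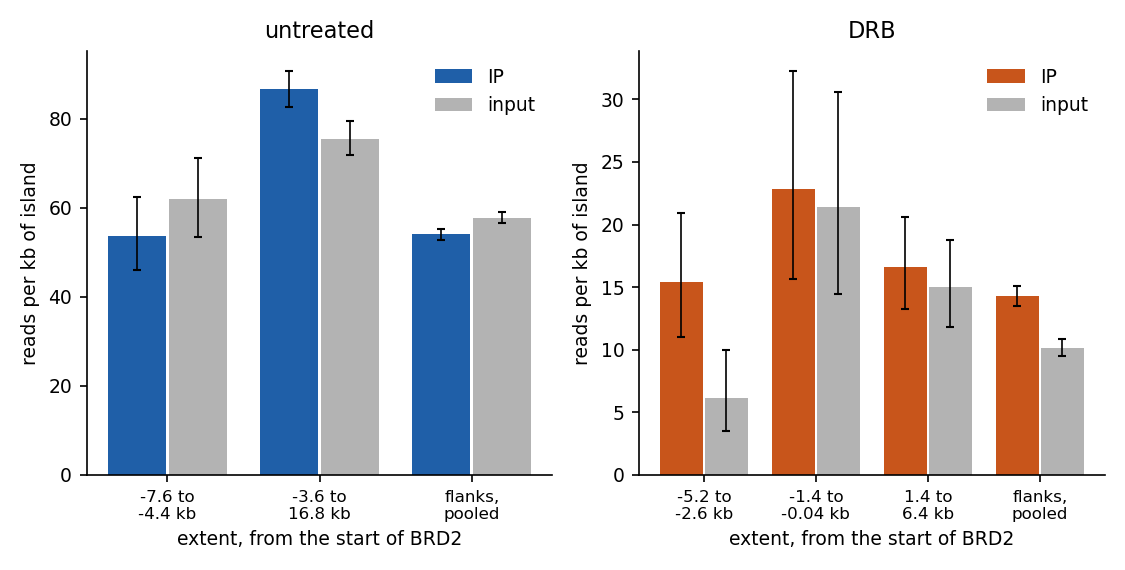
IP and input reads per kb of island (y axes) for each island at BRD2 and for the pooled flanks, untreated on the left and DRB on the right; the extents under the bars are in kb from the gene start, and error bars are exact 95% Poisson counting intervals. The untreated main island stands above the flanks in both bars, 86.6 against 54.1 for the IP. In the DRB island from -5.2 to -2.6 kb the IP bar, 15.4, is near that of the flanks, 14.3, and the input bar is low.

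The flanks gave a flat local baseline in untreated cells. They held 29 candidate islands with 7344 IP and 7848 input reads, a pooled fold of 1.00 (0.97 to 1.04). None of the 29 was significant. Their folds ran from 0.85 to 1.30 with a median of 0.996, and 13 were above 1. The side of lower coordinates had 10 islands and a pooled fold of 1.03 (0.97 to 1.09), and the other side 19 islands and 0.99 (0.96 to 1.03). Relative to the pooled flanks, the fold at BRD2 was 1.23 (1.14 to 1.32), which does not depend on the authors' scaling.

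A single flanking island exceeded BRD2 in fold. It lay just outside the window, 2000 bp before it, at chr6:32919801-32923000, and had 194 IP and 160 input reads, 1.30-fold (1.05 to 1.61). It was the only flanking island whose interval lay above 1, and its deposited FDR of 0.00168 left it out of the authors' list. The fold of the BRD2 island was 0.95 times (0.75 to 1.19) that of this island, so their folds could not be told apart within counting error. The lowest fold was at chr6:33085801-33087200, with 99 IP and 125 input reads, 0.85-fold (0.65 to 1.12). On the far side, an island at chr6:32960001-32966600 began 1 bp past the window and had 250 IP and 267 input reads, 1.00-fold (0.84 to 1.20).

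The BRD2 domain was wider than every candidate island of the flanks. The widest flanking island measured 9.4 kb and the median 4.2 kb, so the domain was 2.17 times as wide as the widest neighbour.

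**Figure D3:**
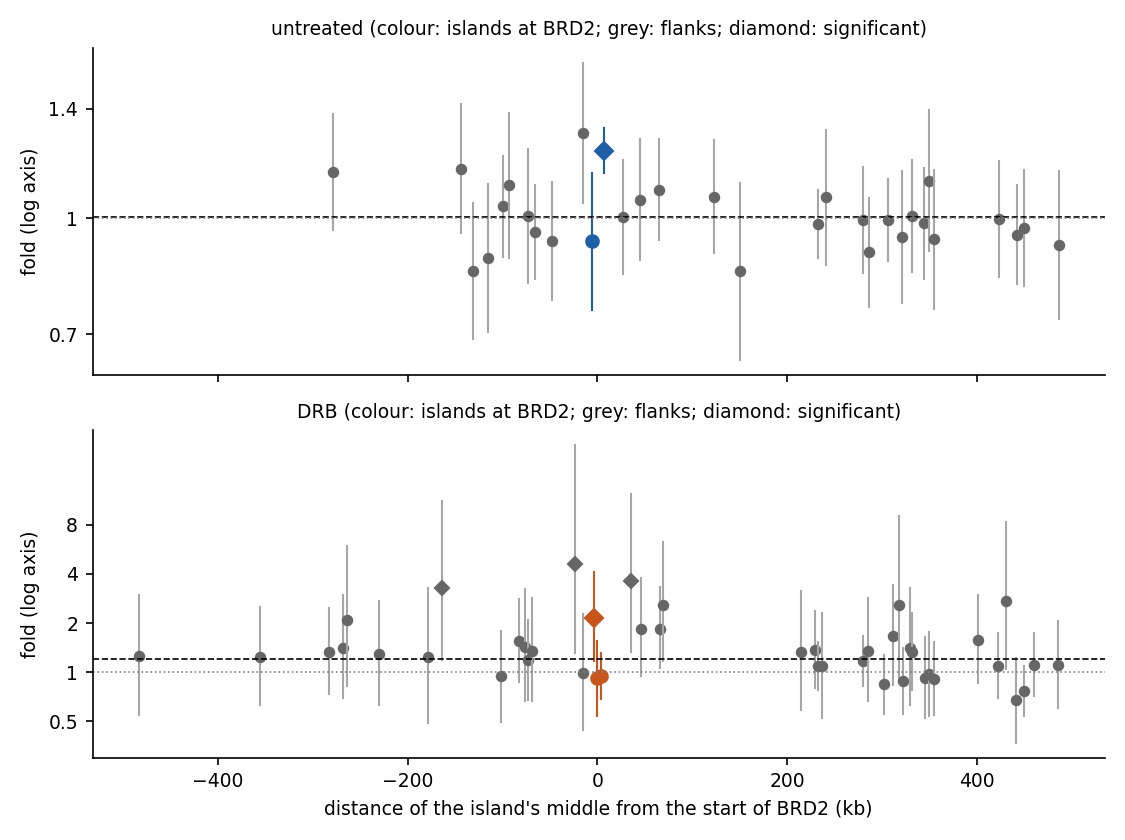
Fold of IP over input (y axes, log scale) of every candidate island within 500 kb of the window against the distance of its middle from the BRD2 start in kb (x axis), untreated above and DRB below. Points are islands with exact 95% counting intervals, coloured at BRD2 and grey in the flanks; diamonds are significant, the dashed line is the pooled fold of the flanks (1.00 and 1.21) and the dotted line marks 1. The untreated diamond is the sole significant island above, while below the BRD2 diamond has 3 others in the flanks.

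Across the genome the BRD2 domain was wide for a significant island, and its fold was low for one. Its fold was above that of 84.8% of all untreated nuclear candidates but of only 10.6% of the 1973 significant islands, whose median was 1.44. Wide islands had lower folds as a rule. The 1246 untreated candidates at least 20 kb wide had a median fold of 1.01 (quartiles 0.98 and 1.05), and 6.10% of them were significant. BRD2, at 20.4 kb just past that width, had the 12th highest fold among the 1246. By excess IP reads over scaled input it ranked 68th of 38695 candidates, and 8th of the 203 significant islands of chromosome 6. On that chromosome 12 significant islands were at least 20 kb wide, and BRD2 was the narrowest of the 12.

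**Figure D4:**
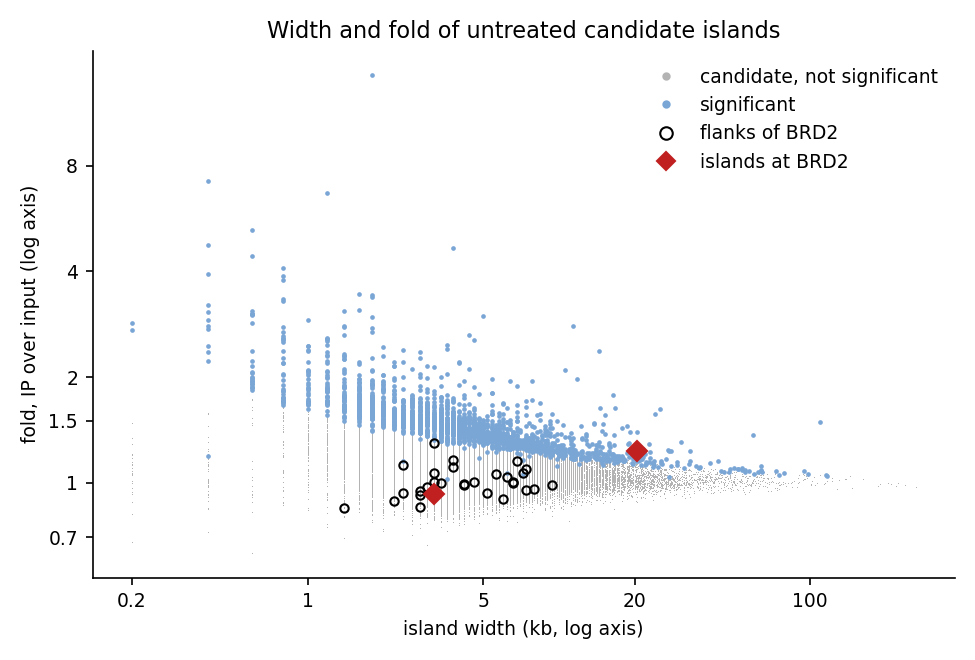
Fold of IP over input (y axis, log scale) against island width in kb (x axis, log scale) for the 38695 untreated nuclear candidates, with significant islands in blue, the 29 flanking islands as open circles and the 2 islands at BRD2 as red diamonds. Folds narrow towards 1 as width grows, and the upper red diamond, 20.4 kb and 1.23-fold, lies in the upper edge of the islands of its width.

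After DRB, 3 candidate islands lay over or beside the gene, and they differed among themselves. The first, at chr6:32931201-32933800, had 40 IP and 16 input reads, 2.15-fold (1.18 to 4.12). It was in the authors' significant list, which holds 4.76% of the DRB candidates. The second, at chr6:32935001-32936400, had 32 IP and 30 input reads, 0.92-fold (0.54 to 1.56), and ended 37 bp before the gene start. The third, at chr6:32937801-32942800, had 83 IP and 75 input reads, 0.95-fold (0.69 to 1.32), and lay wholly inside the gene. The first island thus had the highest fold of the 3, and the intervals of the other 2 took in 1.

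The significant DRB island did not reach the gene. It ended 2637 bp before the BRD2 start, and of its 2600 bp only 1000 lay in the untreated domain, with 800 in the gap before it and 800 in the upstream untreated island that had 0.93-fold. Its IP density, 15.4 reads per kb, was 1.08 times (0.77 to 1.48) that of the DRB flanks. Its input density, 6.15 reads per kb, was 0.61 times (0.35 to 0.99) that of the flanks. Relative to the pooled flanks, then, its input was lower and its IP alike within counting error. The DRB flanks differed by side. Those of lower coordinates, the side nearer to this island, had 11.6 IP and 7.20 input reads per kb, and the others 15.5 and 11.6. Against the side of lower coordinates alone, its IP was higher and its input only somewhat lower, with no interval computed. All DRB nuclear candidates, pooled, had 12.7 IP and 8.56 input reads per kb. Input was denser in this island than in 38.8% of them.

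The call of this island was at the limit of the list. In the authors' deposited table its FDR was 9.989e-05 against their threshold of 1e-04, and its p-value of 4.9e-06 was the highest among the 3228 significant DRB islands, shared by 13 of them. By the same Poisson formula, 1 IP read fewer would have given 1.1e-05 and 1 input read more 1.93e-05, both past that limit. Its fold was low for the list, above that of 3.81% of the significant DRB islands, whose median was 4.02. Its 16 input reads were more than in 94.0% of them, where the median was 4.

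The 2 DRB islands at the gene start and in the gene had the opposite makeup, with dense input. Input reached 21.4 reads per kb in the island that ended at the gene start, more than in 98.1% of all DRB nuclear candidates, and 15.0 in the island inside the gene, more than in 92.2%. Together they had 1.62 times (1.31 to 1.98) the input density of the DRB flanks and 1.26 times (1.03 to 1.53) the IP density. Their pooled fold was 0.94 (0.72 to 1.24), or 0.78 times (0.58 to 1.04) that of the flanks and 0.77 times (0.58 to 1.02) the untreated fold of the domain.

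DRB islands covered a minor part of the untreated domain. They lay over 7400 of its bases, 36.3%, and over 38.9% of the gene. From 32942801 to the end of the domain, 10.4 kb that take in the 3′ part of BRD2, no DRB candidate island was listed and so no DRB value exists. Input in the flanking islands was 5.69 times as dense in the untreated table as in the DRB table, and the part of depth in the missing islands was not tested.

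The DRB flanks held 41 candidate islands with 1244 IP and 885 input reads, a pooled fold of 1.21 (1.11 to 1.32), with folds from 0.68 to 4.59. Of the 41, 3 were significant, or 7.32%, against 4.76% of all DRB candidates, and each of the 3 was narrow with few input reads. The one at chr6:32912201-32912800 had 16 IP and 3 input reads (4.59-fold, 1.31 to 24.6). That at chr6:32971801-32972600 had 21 and 5 (3.61-fold, 1.32 to 12.3), and that at chr6:32771801-32773000 had 19 and 5 (3.27-fold, 1.18 to 11.2). None of the 3 lay over an untreated candidate island. In all, 6 flanking islands had a higher fold than the significant island at BRD2, so its DRB fold was within the local range. Those 6 had only 3 to 9 input reads each, against 16 in the island at BRD2. Among flanking islands with at least 16 input reads, the highest DRB fold was 1.85 (1.07 to 3.32), below 2.15.

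Summed over the 3 islands, DRB gave 155 IP and 121 input reads, 1.10-fold (0.86 to 1.41), which was 0.90 times (0.69 to 1.16) the untreated fold. That interval takes in 1, so a difference from the untreated fold was not detectable at this depth with the authors' scaling. Scaling by the summed reads of nuclear islands gave 0.74 (0.58 to 0.96), which leaves out 1. Scaling by the median of islands at least 10 kb wide gave 0.91 (0.71 to 1.18). With the authors' scaling the folds of the conditions are not centred alike. Their median over nuclear candidates was 1.08 untreated and 1.51 with DRB. Each condition set against its own flanks, BRD2 stood at 1.23 (1.14 to 1.32) untreated and at 0.91 (0.70 to 1.18) with DRB. The quotient of these, 0.74 (0.57 to 0.97, a normal interval of the log ratio), was computed after the data were seen. Its DRB baseline came from small counts. A typical (median) flanking island held 27 IP and 16 input reads with DRB, against 241 and 261 untreated. Median flank folds were 1.33 with DRB and 0.996 untreated. Nuclear islands gave a DRB constant of 0.673, and those at least 10 kb wide 0.850. Whether selection of islands with few reads raised the DRB baseline behind both 0.74 values was not tested. The islands of the conditions also differ in extent. A locus chosen for its untreated fold tends to have a lower one in another sample. These ratios are thus no measure of an effect of DRB.

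The 3 significant untreated islands of at least 20 kb whose fold was nearest to that of BRD2 served as the most alike domains. They lay on chromosome 20 at 47875001 to 47908400, chromosome 7 at 26218801 to 26246800 and chromosome 14 at 28201801 to 28229200, each 1.23-fold untreated. Their DRB folds were 0.97 (0.82 to 1.14), 0.97 (0.71 to 1.33) and 1.31 (0.99 to 1.74). None of the 13 DRB islands over these 3 was significant, where 4.76% of all DRB candidates were, so a count of 0 is near that share. The BRD2 value of 1.10 fell between them, within the counting interval of each.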

How the data were processed

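Values came from the islands that the authors deposited for each condition. Per the submitters' processing notes, FastQC 0.11.5, Bowtie 1.1.2, SICER and the build hg19 were used; how SICER was set and how the untreated replicates were joined is not given in the sources used here. The deposited tables have no header. The deposited counts are whole numbers of IP and input reads per island, not normalized, as their values show. The deposited p-value is the upper Poisson tail of the IP reads given the scaled input, and the deposited FDR adjusts it over the islands of the table. The deposited fold is a ratio, IP over input reads times 1 constant per table (1.07 untreated, 0.861 DRB). The significant lists equal the islands with an FDR under 1e-04.

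Nuclear candidate islands held 14495388 IP and 14661480 input reads untreated, and 1977419 and 1330018 with DRB. With the mitochondrial island included, the totals were 15339872 and 16034656 untreated, and 2411436 and 2726149 with DRB. Scaling by nuclear reads alone gives constants of 1.01 untreated and 0.673 with DRB. Positions are 1-based. Islands counted when they overlapped by at least 1 bp. Fold intervals are Clopper-Pearson intervals of the IP share. Ratios of folds have exact conditional intervals from 4 counts, and ratios of densities have exact binomial ones. The interval functions were tested on simulated data. Reads are not independent molecules, and the labels name no separate cultures for the untreated replicates.

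The locus and the comparisons were chosen with earlier results of these data known. The gene span on hg19 was set with the choice of the locus, and genes beside it were named only by their order in RefSeq. Named islands were all those of the window, the significant ones and the highest and lowest untreated fold (at least 50 input reads) of the flanks, and the 3 significant islands of at least 20 kb nearest in log2 fold. Islands that border the window were named after their values were seen. Alternatives concerned scaling, region, flanks, baseline and threshold. The tools were SciPy 1.17.1, pandas 2.3.3 and numpy 2.4.6 under Python 3.11.15, with figures by matplotlib 3.10.9.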

Additional observations from a re-analysis of the deposited data

How the results depend on the processing

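Of 40 values under alternatives, 5 used the same islands as the main value and could not move. Of the other 35, 28 stayed within the counting interval of the main value or on the same side of the threshold. Scaling by the summed reads of nuclear islands moved the DRB fold over BRD2 to 0.86 (0.67 to 1.10). It gave a DRB over untreated ratio of 0.74 (0.58 to 0.96), whose interval leaves out 1. Most DRB islands in that sum held few reads, and the part of this in the ratio was not tested. Scaling by the median of islands at least 10 kb wide gave a DRB fold of 1.09 (0.85 to 1.39). The ratio was then 0.91 (0.71 to 1.18), whose interval takes in 1. With significant DRB islands alone, the DRB fold was 2.15, the ratio to untreated 1.75 (0.95 to 3.36) and the ratio to the flanks 1.78 (0.97 to 3.42), since only the upstream island remained. With DRB islands inside the gene alone, an alternative added after seeing the data, the fold was 0.95 and the ratio to untreated 0.77 (0.56 to 1.08). With flanks of 250 kb, untreated input density at BRD2 was 1.41 times that of the flanks. At a 10 times lower FDR the DRB call, with its FDR of 9.989e-05, was lost, and the untreated one, at 3.67e-15, was kept. The DRB call was also lost with 1 IP read fewer (p = 1.1e-05 by the authors' Poisson formula), added after seeing the data. The untreated fold relative to the flanks ran from 1.19 to 1.24 over all alternatives. The DRB one varied more, from 0.77 (0.58 to 1.03) with flanks of 250 kb to 1.78 with significant DRB islands alone. With the median fold of the flanking islands as baseline it was 0.83 (0.65 to 1.06). No paired analysis was possible because the tables hold 1 pooled IP and 1 pooled input column per condition, and for the same reason no replicate could be left out.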
